A study of Mus musculus with 41 samples.

Results

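Lactylation of lysine 18 of histone H3 (H3K18la) was mapped by CUT&Tag, in which an antibody brings a transposase to a histone modification and the DNA beside it is cut and tagged. The regions described here are distal H3K18la peaks that were found in both macrophage populations of the study and in no other cell type. They were chosen by their H3K18la calls: a peak of post-ischemia macrophages (PIM) had to share at least 1 bp with a peak of bone marrow-derived macrophages (BMDM), overlap no H3K18la peak of 6 other cell types, lie outside every promoter (2000 bp on each side of any annotated transcription start site, TSS) and lie on chromosomes 1 to 19. This left 2551 regions, which are 8.08% of the 31568 PIM H3K18la peaks and 13.3% of the 19179 PIM peaks outside promoters. The H3K18la sets of all 8 cell types together held 200481 peaks on these chromosomes.

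BMDM were bone marrow precursors of C57BL/6 mice grown in DMEM with the growth factor M-CSF, and 1 H3K18la sample was taken. PIM were sorted from the calf muscle of C57BL/6 mice 2 days after ligation of the hind limb arteries, as cells carrying CD45, CD11b, F4/80 and CD64, and gave 2 H3K18la samples. The excluding cell types were E14 embryonic stem cells grown in serum-lif (mESC-ser, 2 samples) or 2i-lif (mESC-2i, 2 samples), primary myoblasts (MB, 1 sample), primary myotubes (MT, 2 samples), gastrocnemius muscle (GAS, 2 samples) and white adipocytes (ADIPO, 2 samples), the last 4 of C57BL/6 background. The methods give female C57Bl6/J mice aged 8 to 12 weeks for the muscle and macrophage samples. They give the mice of the adipocytes as female too, with an age within that range. Stem cells entered the assay as whole cells and the rest as nuclei, GAS is whole tissue that holds blood-derived cells beside its fibres, and the adipocyte nuclei came from mice that carry an adipocyte Cre and a nuclear tag. The labels record every sample as a control.

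The samples of a cell type and mark had been merged before peaks were called, so each has 1 pooled peak set, no value of a set carries a replicate error, and the spread over cell types was the only error available for a test. The sets of the other marks held between 10849 and 35172 peaks and covered between 26.97 and 196 Mb. A share is given with its 95% Wilson interval and a difference of shares with a Newcombe interval; both cover counting error only. The signal of a peak is fragment coverage that was not scaled for depth, so it was compared within a peak list and never between PIM and BMDM. The number of reads per sample is not given by the lists.

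Macrophages derive from blood monocytes and from embryonic precursors, and they clear microbes and dead cells and help damaged muscle to heal. Their distal control elements are opened by the lineage factor PU.1, an ETS protein that recognises a purine-rich sequence, together with C/EBP, AP-1, IRF and RUNX factors, and the active elements carry H3K27ac. H3K4me3 is found mainly at active promoters, and H3K27me3 is the mark of Polycomb repression. Lactylation draws on lactate, the end product of glycolysis, which rises in activated macrophages and in ischemic tissue.

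To show the DNA behind the strongest signals, 300-base windows centred on the stretch of maximum PIM signal are given for the 4 regions with the highest maximum. Sequences are the plus strand of GRCm38, the same build as mm10. Capitals mark matches, on either strand, to short letter strings of macrophage factors: GAGGAAGT (PU.1), its inner part GGAAGT (ETS core), TTGCNNAA (C/EBP), TGANTCA (AP-1), GAAANNGAA (IRF), GGAANNGAA (ETS-IRF composite), TGTGGTT (RUNX) and TGCTGAC (MAF). The names are those of the nearest protein-coding genes.
Tenm4 region at chr7:96848980-96849279: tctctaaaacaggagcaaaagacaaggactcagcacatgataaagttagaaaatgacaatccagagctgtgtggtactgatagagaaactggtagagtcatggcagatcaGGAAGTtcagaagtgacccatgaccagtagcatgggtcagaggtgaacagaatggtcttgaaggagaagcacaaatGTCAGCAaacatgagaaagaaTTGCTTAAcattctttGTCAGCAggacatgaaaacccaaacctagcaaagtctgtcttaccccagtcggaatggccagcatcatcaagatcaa
Fat3 region at chr9:16215373-16215672: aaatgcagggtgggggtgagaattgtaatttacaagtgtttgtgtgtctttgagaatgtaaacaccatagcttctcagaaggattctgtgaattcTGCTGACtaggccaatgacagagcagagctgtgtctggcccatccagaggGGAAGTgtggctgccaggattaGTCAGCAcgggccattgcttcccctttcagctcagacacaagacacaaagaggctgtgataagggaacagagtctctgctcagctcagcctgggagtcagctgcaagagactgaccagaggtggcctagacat
Tekt3 region at chr11:63046431-63046730: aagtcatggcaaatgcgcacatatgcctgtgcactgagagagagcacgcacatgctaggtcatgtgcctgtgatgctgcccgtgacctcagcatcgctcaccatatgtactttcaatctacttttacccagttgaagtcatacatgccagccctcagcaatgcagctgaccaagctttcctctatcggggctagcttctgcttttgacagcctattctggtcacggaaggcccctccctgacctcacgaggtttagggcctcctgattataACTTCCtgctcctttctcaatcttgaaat
Basp1 region at chr15:25287897-25288196: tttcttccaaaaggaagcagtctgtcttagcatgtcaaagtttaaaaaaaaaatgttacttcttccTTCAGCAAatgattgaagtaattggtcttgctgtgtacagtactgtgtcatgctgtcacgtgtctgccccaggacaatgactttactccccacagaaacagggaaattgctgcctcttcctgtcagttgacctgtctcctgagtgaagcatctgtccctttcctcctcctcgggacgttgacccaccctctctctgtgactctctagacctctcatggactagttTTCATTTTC
The first lay in Tenm4, a teneurin adhesion gene, 65984 bp from its nearest TSS, and had a maximum signal of 1257 in PIM and 508 in BMDM. The second lay in an intron of Fat3, an atypical cadherin gene, with 772 in PIM and 788 in BMDM. The third lay outside genes, 13544 bp from Tekt3, with 766 and 762, and the fourth lay in the long non-coding gene 4930445E18Rik, 121922 bp from Basp1, with 724 and 596. None of the 4 windows held the PU.1 string, and 3 of them held its inner ETS core.

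The strongest region beside Ccr2, the receptor that brings inflammatory monocytes into tissue, is shown because the gene marks macrophages that come from the blood.
Ccr2 region at chr9:124071557-124071856: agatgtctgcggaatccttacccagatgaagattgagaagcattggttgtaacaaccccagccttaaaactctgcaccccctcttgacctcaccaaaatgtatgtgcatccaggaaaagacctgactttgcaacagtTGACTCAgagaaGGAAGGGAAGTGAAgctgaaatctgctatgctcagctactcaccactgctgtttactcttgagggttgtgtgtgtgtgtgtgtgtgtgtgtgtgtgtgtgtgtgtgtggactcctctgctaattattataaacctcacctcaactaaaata
The Ccr2 window held an AP-1 match at base 138 and 2 overlapping ETS-IRF composites at bases 150 and 155, counted from the 5′ end. The region reached a maximum of 230 in PIM and 423 in BMDM and lay 27582 bp from the Ccr2 TSS.

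The 4 regions with the highest PIM maximum among those whose window did hold the PU.1 string were picked for that match after the search, and are given to show its setting.
Basp1 region at chr15:25354752-25355051: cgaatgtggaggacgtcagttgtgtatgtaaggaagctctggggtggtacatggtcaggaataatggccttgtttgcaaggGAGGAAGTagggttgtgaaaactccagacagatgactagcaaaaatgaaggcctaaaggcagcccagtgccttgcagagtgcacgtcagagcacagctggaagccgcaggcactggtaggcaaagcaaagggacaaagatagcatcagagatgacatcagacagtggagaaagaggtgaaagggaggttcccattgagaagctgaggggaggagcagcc
Prok2 region at chr6:99784844-99785143: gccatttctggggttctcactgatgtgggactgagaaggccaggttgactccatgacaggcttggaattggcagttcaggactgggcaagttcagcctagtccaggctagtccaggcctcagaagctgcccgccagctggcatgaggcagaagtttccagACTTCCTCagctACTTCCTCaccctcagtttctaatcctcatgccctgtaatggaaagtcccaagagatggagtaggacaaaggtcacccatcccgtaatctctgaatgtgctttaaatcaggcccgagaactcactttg
Piwil2 region at chr14:70402431-70402730: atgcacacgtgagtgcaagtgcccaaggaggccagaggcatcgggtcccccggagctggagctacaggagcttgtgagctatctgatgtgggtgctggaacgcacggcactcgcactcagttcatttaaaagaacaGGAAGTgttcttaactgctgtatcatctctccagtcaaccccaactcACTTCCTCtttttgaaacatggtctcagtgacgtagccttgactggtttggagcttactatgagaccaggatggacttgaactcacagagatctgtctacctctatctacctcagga
Man1a region at chr10:53927928-53928227: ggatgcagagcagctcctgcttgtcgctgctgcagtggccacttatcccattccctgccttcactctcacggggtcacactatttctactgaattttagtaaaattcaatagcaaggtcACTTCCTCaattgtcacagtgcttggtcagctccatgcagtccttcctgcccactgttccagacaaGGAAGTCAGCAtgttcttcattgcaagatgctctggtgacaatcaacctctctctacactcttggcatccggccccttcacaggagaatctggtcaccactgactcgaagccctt
The maximum signal of these regions was 603, 568, 503 and 483 in PIM. In BMDM it was 1096, 239, 347 and 284. The Prok2 window held the string at bases 161 and 173 on the minus strand. Prok2 encodes prokineticin 2, a secreted peptide made by myeloid cells.

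The H3K18la values that chose the regions are a description and were not tested. The maximum PIM signal had a median of 79 (15 to 1257) over the 2551 regions, against 59 over the other 16628 distal PIM peaks, and 34.0% of the regions were above the upper quartile of all distal peaks. Their width had a median of 1775 bp (363 to 22174 bp). In BMDM the maximum had a median of 168 (36 to 1414), where all BMDM peaks had a median of 154. A BMDM peak covered a median of 54.4% of a region, and 2313 of the regions met a single BMDM peak. The order of the regions was shared only in part, with Spearman's rho = 0.41 between the maxima of PIM and BMDM over 2551 regions, given as a description of 2 pooled sets. Of the 8006 distal PIM peaks with a BMDM partner, 5455 were left out because another cell type had a peak there, and MT alone removed 558 of them, GAS alone 546, ADIPO alone 272, mESC-2i alone 151, MB alone 85 and mESC-ser alone 43. A further 4890 distal peaks were found in PIM alone among the 8 cell types.

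At the edges of the rule, the 2 regions nearest to a promoter window lay 3 bp (Gm11034) and 31 bp (Cxcl5) from it, and the 2 left out by the least overlap shared 4 bp (Mgam) and 10 bp (Scyl3) with one. The smallest BMDM overlaps kept were 17 bp (Ada) and 19 bp (G530012D18Rik), and the nearest misses ended 27 bp from a BMDM peak (Dusp27, Lmo4). The closest H3K18la peak of another cell type lay 1 bp from a region at Itga9 and 13 bp from one at Foxp1, and regions at Trib1 and Fndc3b were left out for sharing 3 and 4 bp. Over the whole set, 173 regions were within 1000 bp of a promoter window and 303 within 1000 bp of an H3K18la peak of another cell type.

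The regions lay mostly between genes or in introns. An annotated exon was touched by 12.6%, 39.6% were in introns only and 47.8% (45.9 to 49.7%) lay outside annotated genes, which was 3.99 percentage points (1.92 to 6.07) more than for the other distal PIM peaks. The distance to the nearest protein-coding TSS had a median of 28331 bp, against 27455 bp for the other distal peaks, and its quartiles over the regions were 11969 and 73554 bp. The 300-base windows had a mean GC content of 46.5% ± 4.89 (SD over 2551 windows) and 3.30 CpG dinucleotides, against 48.6% ± 5.30 and 3.79 for the other distal peaks and 54.0% ± 11.3 and 12.6 for RefSeq promoters, so the regions were poor in CpG.

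In macrophages, active marks covered 41.6% to 45.8% of the regions, depending on the mark. H3K27ac of PIM overlapped 1106 regions (43.4%, 41.4 to 45.3%), where the share over all distal PIM H3K18la peaks was 37.1%. H3K27ac of BMDM overlapped 1061 regions (41.6%, 39.7 to 43.5%), where the share over all distal peaks was 23.3%. H3K4me3 of PIM overlapped 1169 regions (45.8%, 43.9 to 47.8%), where the share over all distal peaks was 35%. Against the other distal peaks the regions had more BMDM H3K27ac by 21.0 percentage points (19.1 to 23.1), more PIM H3K4me3 by 12.5 (10.4 to 14.6) and more PIM H3K27ac by 7.24 (5.19 to 9.31). With only the stronger part of each mark's list by total signal, the shares of the regions were 14.6% for PIM H3K27ac (14.3% of all distal peaks), 16.9% for BMDM H3K27ac (10.9%) and 10.8% for PIM H3K4me3 (11.1%). The differences from the other distal peaks were then 0.38 points (-1.04 to 1.89), 6.81 (5.33 to 8.38) and -0.37 (-1.61 to 0.98), so the excess of the 2 PIM marks was not seen with the stronger peaks, a comparison added after the data were seen. A BMDM peak was part of the rule, so a higher BMDM share is not independent of it. H3K27me3 was rare, at 108 regions in PIM (4.23%, against 7.18% of all distal peaks) and 21 regions in BMDM (0.823%, against 2.82%).

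The other distal peaks were not alike. Only 14.5% of the 4890 peaks found in PIM alone had PIM H3K27ac and 17.0% had PIM H3K4me3, while of the 5455 macrophage peaks shared with another cell type 65.4% had H3K27ac and 58.5% had H3K4me3. The macrophage-restricted regions thus lay between these sets for both marks. The median maximum signal followed the same order, at 46, 79 and 110, and its part in the order of the marks was not tested.

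**Figure D1:**
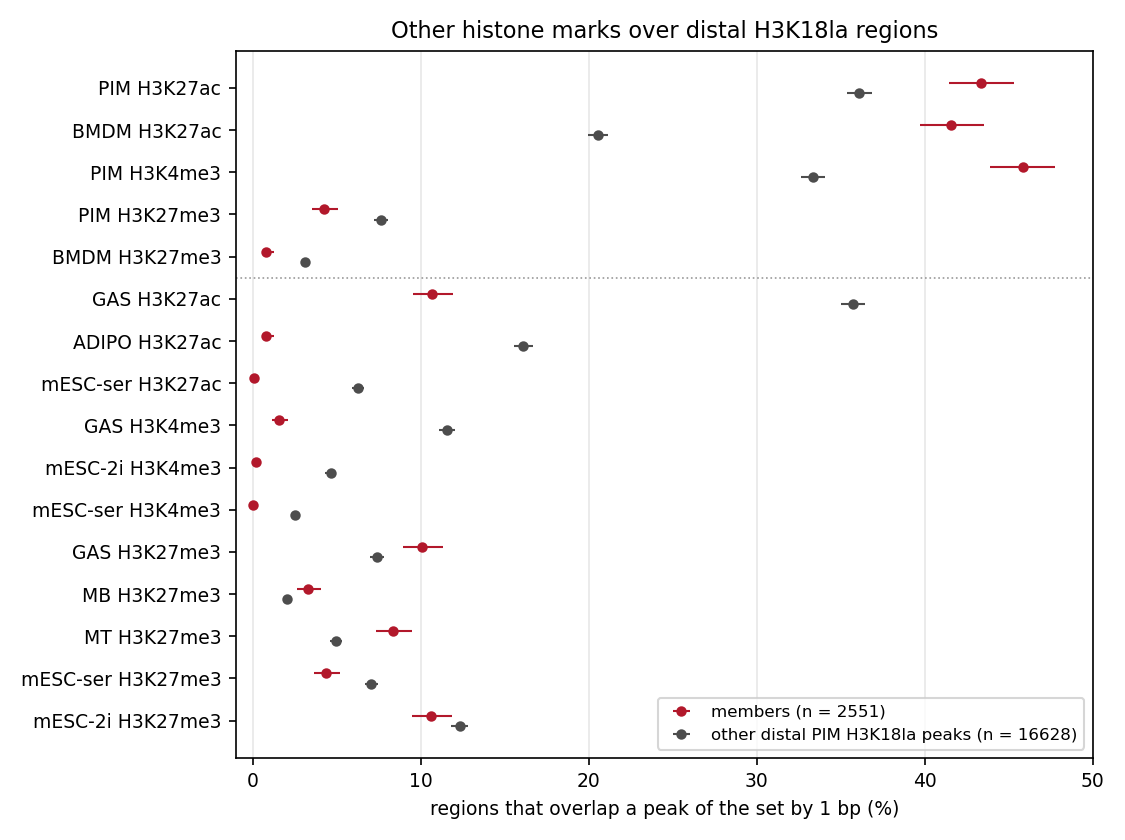
Percent of regions (x axis) that overlapped a peak of each of 16 peak sets (y axis) by 1 bp, for the 2551 macrophage-restricted regions (red) and the other 16628 distal PIM H3K18la peaks (grey); bars are 95% Wilson intervals, and the dotted line divides macrophage sets from those of the other cell types. With the full lists the regions were above the other peaks for H3K27ac and H3K4me3 of macrophages and below them for these marks in GAS, ADIPO and stem cells.

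H3K27ac was found in PIM and BMDM at 673 regions (26.4%), in PIM only at 433, in BMDM only at 388 and in neither at 1057 (41.4%, 39.5 to 43.4%). Over all distal PIM peaks these shares were 17.6%, 19.5%, 5.74% and 57.2%, against 26.4%, 17.0%, 15.2% and 41.4% of the regions. The 2 active marks of PIM often met: 65.6% of the regions with PIM H3K27ac also had H3K4me3, against 30.7% of those without. This was not particular to the regions, as the 2 shares were 62.2% and 18.98% over all distal PIM peaks. They were 73.4% and 30.4% in the macrophage peaks shared with another cell type, and 37.3% and 13.5% in the peaks found in PIM alone. H3K4me3 without H3K27ac was found at 443 regions (17.4%, against 11.9% of all distal peaks), although none of these overlapped an annotated promoter. At 750 regions (29.4%, 27.7 to 31.2%) none of the 5 other macrophage sets had a peak and H3K18la was the only mark called in macrophages, against 43.9% of all distal peaks. In the peaks found in PIM alone that share was 66.9% and in the shared macrophage peaks 17.7%.

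The share with an active mark rose with the H3K18la signal. From the lowest to the highest quartile of maximum PIM signal, PIM H3K27ac overlapped 10.5%, 28.2%, 49.9% and 84.8% of the regions. PIM H3K4me3 overlapped 25.2%, 38.4%, 48.8% and 70.8%, and BMDM H3K27ac 21.8%, 35.3%, 44.7% and 64.6%. The GAS H3K27ac share stayed between 10.2% and 11.1% and PIM H3K27me3 between 3.92% and 4.55%. Shares by quartile were taken for the regions only, so whether the rise is particular to them was not tested. Regions with PIM H3K27ac had a median width of 2318 bp and a median distance of 22688 bp to the nearest TSS, and those without had 1507 bp and 34564 bp. A wider region is easier to overlap by 1 bp, and the part of width in these shares was not tested. When H3K27ac of PIM had to cover at least 50% of a region the share was 13.7%.

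**Figure D2:**
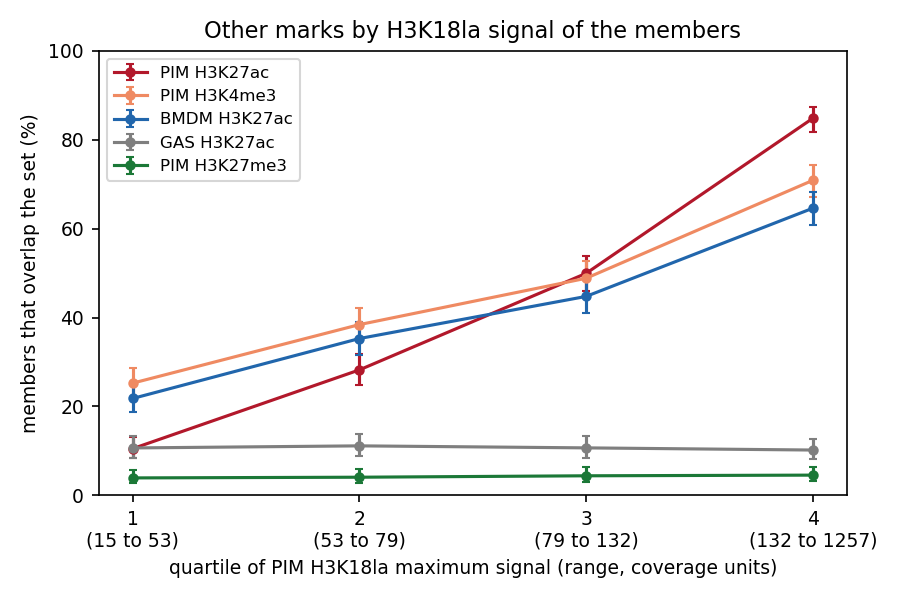
Percent of the 2551 regions (y axis) that overlapped a peak of 5 sets, by quartile of the maximum PIM H3K18la signal (x axis, with the range of the signal); bars are 95% Wilson intervals. The 3 active macrophage marks rose from the lowest to the highest quartile, PIM H3K27ac from 10.5% to 84.8%, and the GAS H3K27ac and PIM H3K27me3 lines stayed level.

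In the other cell types with a set of H3K27ac or H3K4me3 few regions had these marks, with H3K27ac of muscle tissue as the exception. MB and MT had no set of either mark, mESC-2i none of H3K27ac and ADIPO none of H3K4me3. H3K27ac overlapped 2 regions in mESC-ser (0.0784%, against 5.45% of all distal PIM peaks), 21 in ADIPO (0.823%, against 14.1%) and 272 in GAS (10.7%, against 32.4%). H3K4me3 overlapped 1 region in mESC-ser (0.0392%, against 2.18%), 5 in mESC-2i (0.196%, against 4.05%) and 40 in GAS (1.57%, against 10.2%). An H3K18la peak in these cell types excluded a region, so low shares of marks that go with H3K18la are not independent of the rule. Of the 272 regions with GAS H3K27ac, 134 were among those with PIM H3K27ac (12.1% of 1106) and 138 among those without (9.55% of 1445). GAS H3K27ac covered the most bases of the H3K27ac sets, 196 Mb, and the part of this width in the GAS share was not tested. Against the number of bases expected at random, its log2 fold enrichment over the regions was -0.18. It overlapped 11.7% of the peaks found in PIM alone.

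In other cell types H3K27me3 was found at fewer of the regions than in PIM for MB, at a like number for mESC-ser and at more for the other 3, and in all 5 at more than in BMDM. It overlapped 271 regions in mESC-2i (10.6%, against 12.1% of all distal PIM peaks), 257 in GAS (10.1%, against 7.75%), 213 in MT (8.35%, against 5.4%), 111 in mESC-ser (4.35%, against 6.71%) and 84 in MB (3.29%, against 2.22%). In all, 595 regions (23.3%, 21.7 to 25.0%) had H3K27me3 in at least 1 of these 5 cell types, close to the 21.7% of all distal PIM peaks and the 24.8% of the peaks found in PIM alone. The set widths differ, so the bases of the regions within a set were also divided by the number expected if both were placed at random on chromosomes 1 to 19. On that scale the log2 fold enrichment of H3K27me3 was -2.23 in BMDM and -0.23 in PIM, and it was -0.11 in mESC-ser, 0.02 in MB, 0.16 in MT, 0.53 in GAS and 0.83 in mESC-2i. Both macrophage values were below all 5 others, PIM by little. Over the other distal PIM peaks the order was another: PIM, at 0.50, was above GAS (-0.03), MB (-0.72) and MT (-0.93), and MT was below BMDM (-0.89). Over the peaks found in PIM alone BMDM was lowest at -0.57, while PIM, at 0.75, was above MB and MT, both at 0.29. The mean was -1.23 ± 1.42 (SD, n = 2) in macrophages and 0.29 ± 0.39 (SD, n = 5) in the others, a difference of -1.51 (exact two-sided permutation test over cell types, p = 0.048, the smallest that 21 assignments allow, and 0.095 after Benjamini-Hochberg adjustment over 2 tests). The difference did not pass a threshold of 0.05 after adjustment. It was -0.51 without BMDM and -2.52 without PIM, so its size rests on BMDM, which gave 1 sample. The rule asked for H3K18la in both macrophage sets and for none in these 5 cell types. The direction for a mark of repression may therefore not be independent of the rule, and the test is read with that limit.

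For H3K27ac the log2 fold enrichment over the same bases was 4.78 in BMDM and 4.15 in PIM, and it was -0.18 in GAS, -2.68 in ADIPO and -4.71 in mESC-ser. The macrophage values had a mean of 4.47 ± 0.44 (SD, n = 2) against -2.52 ± 2.27 (SD, n = 3), a difference of 6.99. The rule asked for H3K18la in both macrophage sets and for none in these 3 cell types, so the direction for a mark that goes with H3K18la is not independent of it. The difference is therefore a description, and the permutation test run on it, which cannot reach 0.05 with 10 assignments, is not read. Over the other distal PIM peaks the H3K27ac values were 4.18 in PIM, close to that of the regions, 4.08 in BMDM, 2.03 in GAS, 2.54 in ADIPO and 1.77 in mESC-ser. Over the peaks found in PIM alone, which exclude the same cell types, they were 2.85 in PIM, 1.20 in BMDM, 0.26 in GAS, -2.90 in ADIPO and -3.96 in mESC-ser, so low values outside macrophages were not particular to the regions.

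**Figure D3:**
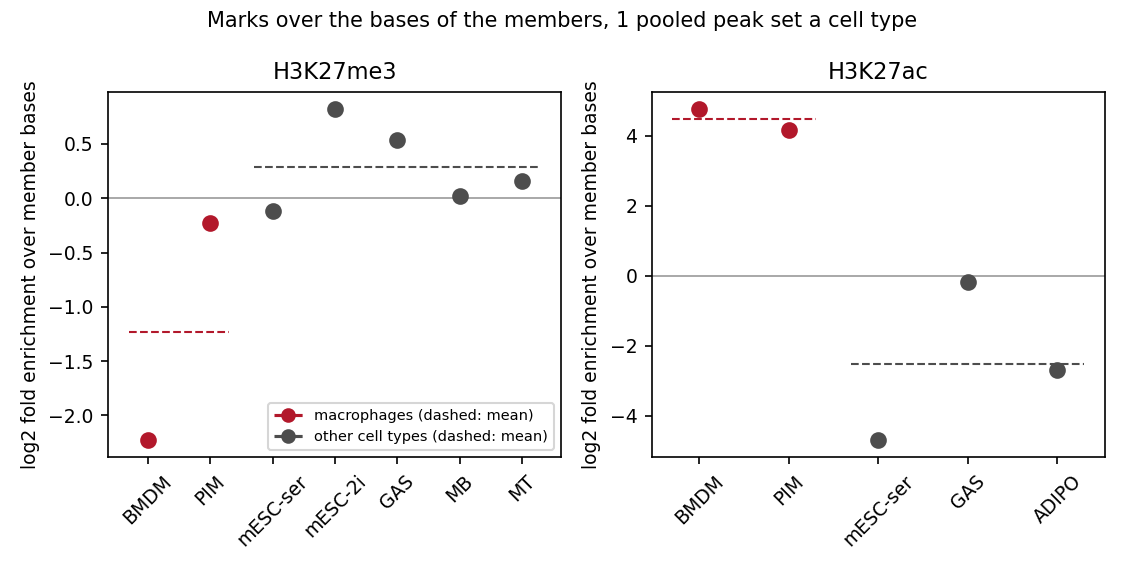
Log2 fold enrichment (y axis) of H3K27me3 (left) and H3K27ac (right) over the bases of the 2551 regions (members) in each cell type (x axis), with macrophages in red and other cell types in grey; each point is 1 pooled peak set and dashed lines are the means of each class. BMDM and PIM were the lowest for H3K27me3, at -2.23 and -0.23, and the highest for H3K27ac, at 4.78 and 4.15.

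Most strings of macrophage factors were found in a larger share of the regions than of the other distal PIM peaks as a whole. AP-1 was found in a smaller share, and NF-kB did not differ beyond its interval. The PU.1 string was found in 346 of 2551 windows (13.6%, 12.3 to 14.9%), in 8.24% of the windows of the other distal PIM peaks and in 3.15% of 31223 RefSeq promoters of the same length. Distal H3K18la peaks restricted to other lineages were searched in the same way: 3567 peaks of mESC-ser and mESC-2i, 3529 of MT and GAS, and 5773 of ADIPO. PU.1 was found in 3.36%, 1.79% and 1.63% of these. The ETS core was found in 46.9% of the regions, against 34.3% of the other distal PIM peaks and 21.7%, 17.4% and 17.8% of the stem cell, muscle and adipocyte sets. The ETS-IRF composite was found in 15.2% against 10.7%, and in no other lineage over 9.27%. The differences between the regions and the other distal PIM peaks were 5.32 percentage points (3.98 to 6.77) for PU.1, 12.6 (10.5 to 14.7) for the ETS core and 4.53 (3.11 to 6.05) for the composite.

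C/EBP was found in 19.2% of the regions, against 14.4% of the other distal PIM peaks, but in 23.4% of the adipocyte set, where C/EBP factors are also lineage regulators. IRF was found in 11.7% against 9.14%, RUNX in 11.96% against 9.18% and MAF in 10.8% against 8.26%. AP-1 was found in 30.6% of the regions and in 33.3% of the other distal PIM peaks, a difference of -2.67 points (-4.57 to -0.72). It was found in 28.5% of the muscle set, 11.4% of the stem cell set and 9.41% of the adipocyte set. The other distal peaks again differed among themselves. Against the peaks found in PIM alone AP-1 was higher in the regions by 3.13 points (0.96 to 5.33), and against the macrophage peaks shared with another cell type the difference was -10.2 points (-12.4 to -7.94). Against the shared macrophage peaks the differences of RUNX, 1.01 points (-0.46 to 2.55), and MAF, 1.21 (-0.19 to 2.69), had intervals that span 0, while PU.1 was higher by 3.90 (2.39 to 5.48). For strings of other lineages, the MyoD E-box CAGCTG was found in 15.8% of the regions and 41.5% of the muscle set, and the octamer ATGCAAAT in 2.43% of the regions, 1.44% of the other distal PIM peaks and 3.28% of the stem cell set. The SOX string ACAATG was found in 18.5% of the regions, 15.2% of the other distal PIM peaks and 21.5% of the stem cell set. Its difference from the other distal PIM peaks, 3.39 points (1.82 to 5.03), was larger than those of IRF (2.55), RUNX (2.77) and MAF (2.56). The NF-kB string GGGANTTTC was found in 1.65% against 1.43%, a difference whose interval spans 0. The strings overlap: a PU.1 match holds an ETS core, and an ETS core can be part of a composite.

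**Figure D4:**
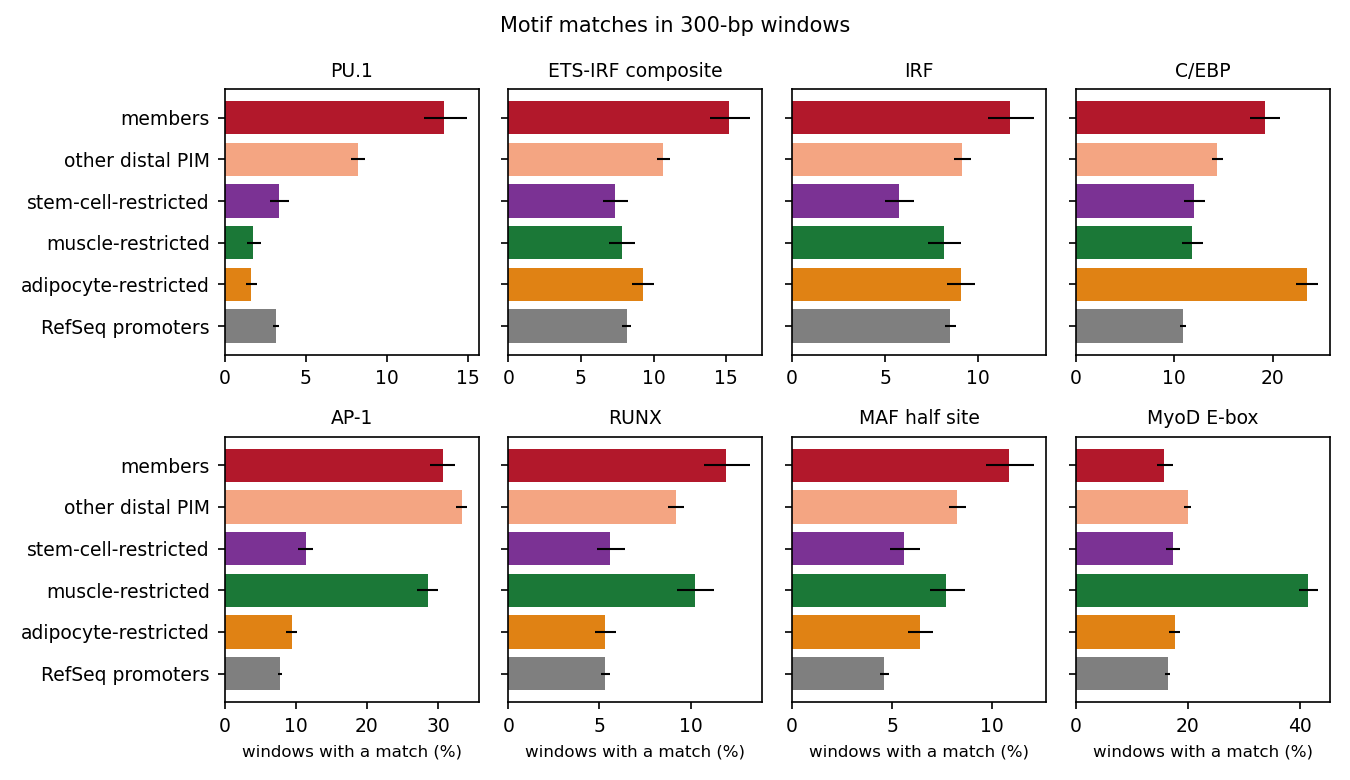
Percent of 300-base windows (x axis, its range set for each panel) with at least 1 match on either strand to 8 strings, for the macrophage-restricted regions (members), the other distal PIM H3K18la peaks, the distal peaks restricted to stem cells, muscle and adipocytes, and RefSeq promoters; bars start at 0 and error bars are 95% Wilson intervals. The regions had the highest share for PU.1 at 13.6%, the adipocyte set for C/EBP at 23.4% and the muscle set for the E-box at 41.5%.

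In the regions, matches of PU.1 and AP-1, and to a lesser degree C/EBP, were concentrated at the maximum of the signal. Positions were taken for these strings and for the regions only, without another peak set beside them. In 1500-base windows cut into bins of 150 bp, the 2 bins beside the centre held 177 and 195 PU.1 matches and the outermost bins 25 and 33. For AP-1 the central bins held 469 and 453 and the outermost 136 and 129, and for C/EBP they held 271 and 290 against 190 and 158. With windows around the midpoint of the peak instead of its maximum, the share of regions with the PU.1 string was 6.70%. The AP-1 share rose with the signal, from 19.4% in the lowest to 43.4% in the highest quartile of PIM maximum, and was 35.3% in regions with PIM H3K27ac against 27.1% in those without. The PU.1 share differed little by H3K27ac of PIM (14.2% with and 13.1% without, with overlapping intervals). From the lowest to the highest quartile of PIM maximum it was 9.25%, 13.2%, 17.1% and 14.7%. The lowest of these was close to the 8.24% of the other distal PIM peaks, whose median maximum was 59 against 79. The part of signal in the PU.1 difference was not tested. Of all regions, 506 (19.8%) held at least 2 of PU.1, C/EBP, AP-1, IRF and RUNX, against 15.1% of the other distal PIM peaks, and 918 (36.0%) held none, against 42.7%. A match is a string of letters and not a measured binding site.

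The region with the largest total PIM signal, 1401973, spanned 22174 bp at chr16:3641351-3663524 between Olfr161, an olfactory receptor gene, and Mefv, which encodes pyrin, an inflammasome sensor of myeloid cells. It had H3K27ac in PIM and BMDM, no H3K4me3 in PIM, and was among the 21 regions with H3K27me3 in BMDM. The second, with 1095541, lay between A530064D06Rik, its nearest protein-coding gene at 24046 bp, and Trem1, an amplifying receptor of myeloid cells, at 29986 bp, and had H3K27ac in PIM but not in BMDM. The third, with 810523, lay 98341 bp from Gm826 and reached a maximum of 635 in PIM and 1152 in BMDM. The remaining 7 of the 10 had total signals from 467293 to 539338 and were nearest to Slx4ip, Tekt3, Ncapg2, Rbbp6, Gpr183, A730009L09Rik and Il10ra. The Gpr183 region lay in Ubac2, 17851 bp from Gpr183, an oxysterol receptor that guides immune cells, and the Il10ra region overlapped Il10ra, the gene of the interleukin 10 receptor, and its neighbour BC049352. All of the 10 had PIM H3K27ac, 9 had BMDM H3K27ac and 8 had PIM H3K4me3.

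The regions were nearest to 1595 protein-coding genes, which are 7.68% of the 20780 on chromosomes 1 to 19. Of these, 1069 were nearest to a single region, 526 to 2 or more, 234 to 3 or more and 46 to 5 or more. The genes with the most regions were Gm826 with 11, Cxcr4 with 10, Fat3, Fshr and Vav3 with 9 each, Rasgef1b with 8, and Actr3, Adgrl2, Cd47 and Kcnk13 with 7 each. Mef2c, Pid1 and Thbs1 also had 7, and the 10 genes were taken from this tie by symbol. Cxcr4 encodes the chemokine receptor that retains leukocytes in marrow and tissue, Vav3 a guanine nucleotide exchange factor of phagocytes and Cd47 the signal that protects a cell from phagocytosis. Of the 10 regions of Cxcr4, 6 had H3K27ac in PIM and 5 in BMDM, and the nearest was 41722 bp from its TSS. The 9 of Fshr, the receptor of follicle-stimulating hormone, had no H3K27ac in either macrophage set while 4 had H3K4me3 in PIM. A nearest gene is not a measured target.

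Genes of macrophage identity were often the nearest gene of a region, where the share over all protein-coding genes was 7.68%. Of the listed transcription factors of macrophages 12 of 25 were nearest to at least 1 region, of surface receptors and identity genes 18 of 35, of genes of repair macrophages 9 of 22, of pattern recognition receptors and adaptors 7 of 19, of lysosome and lipid genes 8 of 26, of cytokines and chemokines 6 of 28 and of interferon response genes 6 of 29. None of 23 muscle markers or of 11 B cell markers was nearest to a region, and 1 of 15 neutrophil, 3 of 15 T cell, 1 of 16 adipocyte, 1 of 14 fibroblast, 2 of 14 endothelial and 3 of 18 stem cell markers were. The macrophage transcription factors were nearest to a distal region restricted to stem cells, muscle or adipocytes in 4, 7 and 9 of 25 cases, where the shares over all protein-coding genes for these sets were 11.7%, 9.34% and 14.2%. These counts, 16%, 28% and 36%, were also above their own backgrounds. The macrophage surface genes were nearest to a distal region restricted to stem cells, muscle or adipocytes in 3, 1 and 3 of 35 cases. The 4890 peaks found in PIM alone, for which the share over all protein-coding genes was 12.8%, were nearest to 18 of 25 transcription factors, 21 of 35 surface genes, 10 of 22 repair genes, 9 of 19 pattern recognition receptors and adaptors, 7 of 26 lysosome and lipid genes, 11 of 28 cytokines and 9 of 29 interferon response genes. These counts were above those of the regions in every list but the lysosome and lipid one. These shares were not tested. Ptprc (CD45), Itgam (CD11b), Adgre1 (F4/80) and Fcgr1 (CD64) encode the proteins by which PIM were sorted.

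Among the transcription factors, Maf, a factor of resident macrophages, had 6 regions, the nearest 94043 bp from its TSS, with maxima of 48 to 94 in PIM and 122 to 275 in BMDM. Runx1, a factor of blood cell formation, had 5. In PIM their maxima were 275, 67, 27, 103 and 101 in genomic order and in BMDM 314, 235, 89, 534 and 569. The 3 within the gene and the 2 that lay upstream of it, 201147 and 205087 bp from its TSS, both included regions with H3K27ac in PIM and BMDM. Tfec, a macrophage relative of the lysosome regulator Tfeb, had 4, of which the region 4963 bp from the TSS was the highest, with 225 in PIM and 349 in BMDM. Zeb2, a factor that keeps tissue macrophages in their identity, had 3, all with H3K27ac in PIM.

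Among the surface genes, Adgre1 had 4 regions in a row upstream of the gene, from 9100 to 21260 bp from its TSS. Their PIM maxima were 181, 51, 25 and 55 from the nearest to the farthest, and in BMDM 416, 97, 113 and 94. The nearest was the highest in both sets, and all 4 had H3K27ac in BMDM but only 2 in PIM. Ptprc had 4, all with PIM H3K4me3. Cx3cr1, the fractalkine receptor, had 3 in its introns with maxima of 87, 170 and 48 in PIM and 122, 254 and 394 in BMDM, and the order of the peaks differed between the sets. Csf1r, the M-CSF receptor, had 3, of which 1 had H3K27ac in both sets. Mrc1, the mannose receptor, had 2 without H3K27ac in either set.

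Among the pattern recognition receptors and adaptors, which sense microbial products or act on that signal, Tlr5, the flagellin receptor, had 4 regions, with maxima of 102, 190, 93 and 124 in PIM and 179, 233, 101 and 162 in BMDM. None of them had H3K27ac in BMDM, 2 had it in PIM and all 4 had H3K27me3 in mESC-2i. The 2 of Tlr4, the endotoxin receptor, had no H3K27ac. Clec4d, a C-type lectin of macrophages, had 1 of 6326 bp with 372 in PIM and 493 in BMDM. Tnfaip3, a brake on NF-kB, had 2, with 69 and 322 in PIM and 578 and 485 in BMDM. The Clec4d region and the second of Tnfaip3 had H3K27ac in both macrophage sets. Nod2, a sensor of bacterial cell wall, had 2 with 102 and 65 in PIM and 486 and 293 in BMDM, and both also had H3K4me3 in mESC-2i.

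Among the cytokine genes, Il1a, which encodes interleukin 1 alpha, had 3 with 41, 67 and 96 in PIM, of which 1 had H3K27ac. Il10, the main anti-inflammatory cytokine of macrophages, had 3 with 171, 37 and 91 in PIM and 108, 89 and 226 in BMDM, of which the first, touching the gene, had H3K27ac in PIM alone. Il12b had 1 with 45 in PIM and 317 in BMDM and H3K27ac in BMDM alone. In the lysosome and lipid list Atp6v0d2, a proton pump subunit of macrophages and osteoclasts, had 4 with maxima up to 340 in PIM, and Ctsc, a cathepsin, had 3. In the interferon list Ifnar1 and Ifnar2, the chains of the type I interferon receptor, had 1 each, both with H3K27ac in PIM and BMDM, while the 1 of Nos2, inducible nitric oxide synthase, 3470 bp from its TSS, had none.

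Among the repair genes, Mmp12, macrophage elastase, had 3 in a row within 10659 bp of its TSS, with 220, 172 and 129 in PIM and 455, 481 and 224 in BMDM, and none had H3K27ac in PIM. Igf1, a growth factor for muscle fibres, had 3 with 27, 150 and 251 in PIM and 70, 529 and 242 in BMDM. Thbs1, thrombospondin 1, had 7 between 118333 and 185194 bp away, in introns of the non-coding gene Gm13986, and 1 of them had H3K27ac. Of the markers of other cell types, Klf4, which is also expressed by monocytes, had 6 without H3K27ac in either macrophage set, 1 of which had it in ADIPO, the nearest 264515 bp from its TSS, Csf3r of neutrophils 1, Cd2, Cd4 and Cd6 of T cells 1 each and Pparg of adipocytes, which macrophages also use, 2.

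The promoters of the nearest genes carried active marks of macrophages more often than those of all genes. PIM H3K27ac overlapped the promoter of 1086 of the 1595 genes (68.1%, 65.8 to 70.3%), against 48.6% of all protein-coding genes, and PIM H3K4me3 that of 1278 (80.1%), against 59.1%. For genes with 3 or more regions the H3K27ac share was 77.8% (72.0 to 82.6%). GAS H3K27ac overlapped 49.6%, against 46.8%, and PIM H3K27me3 29.2%, against 26.1%. In mESC-ser H3K27me3 overlapped the promoters of 36.3%, against 26.5%, and of 49.1% of the genes with 3 or more regions. For genes nearest to the peaks found in PIM alone these shares were close, at 66.4% for PIM H3K27ac and 38.0% for mESC-ser H3K27me3.

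The regions had another region as their nearest neighbour more often than the other distal peaks did. The nearest distal PIM peak of a region was another region for 773 of 2551 (30.3%, 28.5 to 32.1%), and it was a region for 10.9% of the other distal peaks, a difference of 19.4 percentage points (17.6 to 21.3). Regions are 13.3% of all distal PIM peaks. The share was 42.4% of the 500 regions with a gap of up to 1000 bp, and 33.3%, 22.3% and 24.3% for gaps of up to 5000 bp, up to 20000 bp and beyond. Among the other distal peaks it was 8.55%, 10.6%, 11.6% and 12.5% over the same gaps. Peaks less than 1000 bp apart can be pieces of 1 enriched stretch, and neighbours share their surroundings, so they are not independent.

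When regions up to 12.5 kb apart were joined, 814 (31.9%) fell into 345 clusters of 2 or more, 91 clusters had 3 or more and 10 had 5 or 6. The same joining put 36.2% of the 4890 peaks found in PIM alone, 28.3% of the stem cell set, 32.2% of the muscle set and 41.1% of the adipocyte set into clusters. It did so for 46.0% of the 5455 macrophage peaks shared with another cell type and 66.0% of the other 16628 distal PIM peaks. All of these sets were larger than that of the regions. At this distance the share of the regions was above that of the stem cell set, a little below that of the muscle set and below the others. With joining distances of 5000 bp and 25000 bp the share of regions in clusters was 23.0% and 43.2%. For the muscle set it was 20.7% and 43.6%, and for the peaks found in PIM alone 23.1% and 48.1%, so the order depended on the distance.

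The 8 clusters with the most regions, ties taken by total PIM signal, are described. The 2 with 6 regions lay at Kcnk13, a potassium channel gene of microglia and macrophages, over 48902 bp (chr12:99978393-100027294), and beside Actr3, which encodes a subunit of the actin-branching Arp2/3 complex, over 36717 bp (chr1:125440561-125477277). At Kcnk13 the PIM maxima were 163, 153, 32, 403, 135 and 60 in genomic order, and 2 had H3K27ac in PIM. At Actr3 they were 77, 125, 39, 81, 95 and 57, and 1 had H3K27ac in PIM. The densest cluster, at B430305J03Rik (chr3:61392293-61417210), had 5 regions over 73.7% of its 24918 bp, with 116 to 261 in PIM, and 3 of them had H3K27ac there. A cluster of 5 lay 107995 to 131874 bp from Cxcr4 and included a region with 303 in PIM and 785 in BMDM. The 5 in and beside Cx3cr1, over 22234 bp, all had H3K4me3 in PIM, and 2 had H3K27ac. Clusters at Gm826, Itga9 and Thbs1 had 5 each, of which 0, 1 and 1 had PIM H3K27ac. Of the 42 regions in these 8 clusters 1 had GAS H3K27ac.

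**Figure D5:**
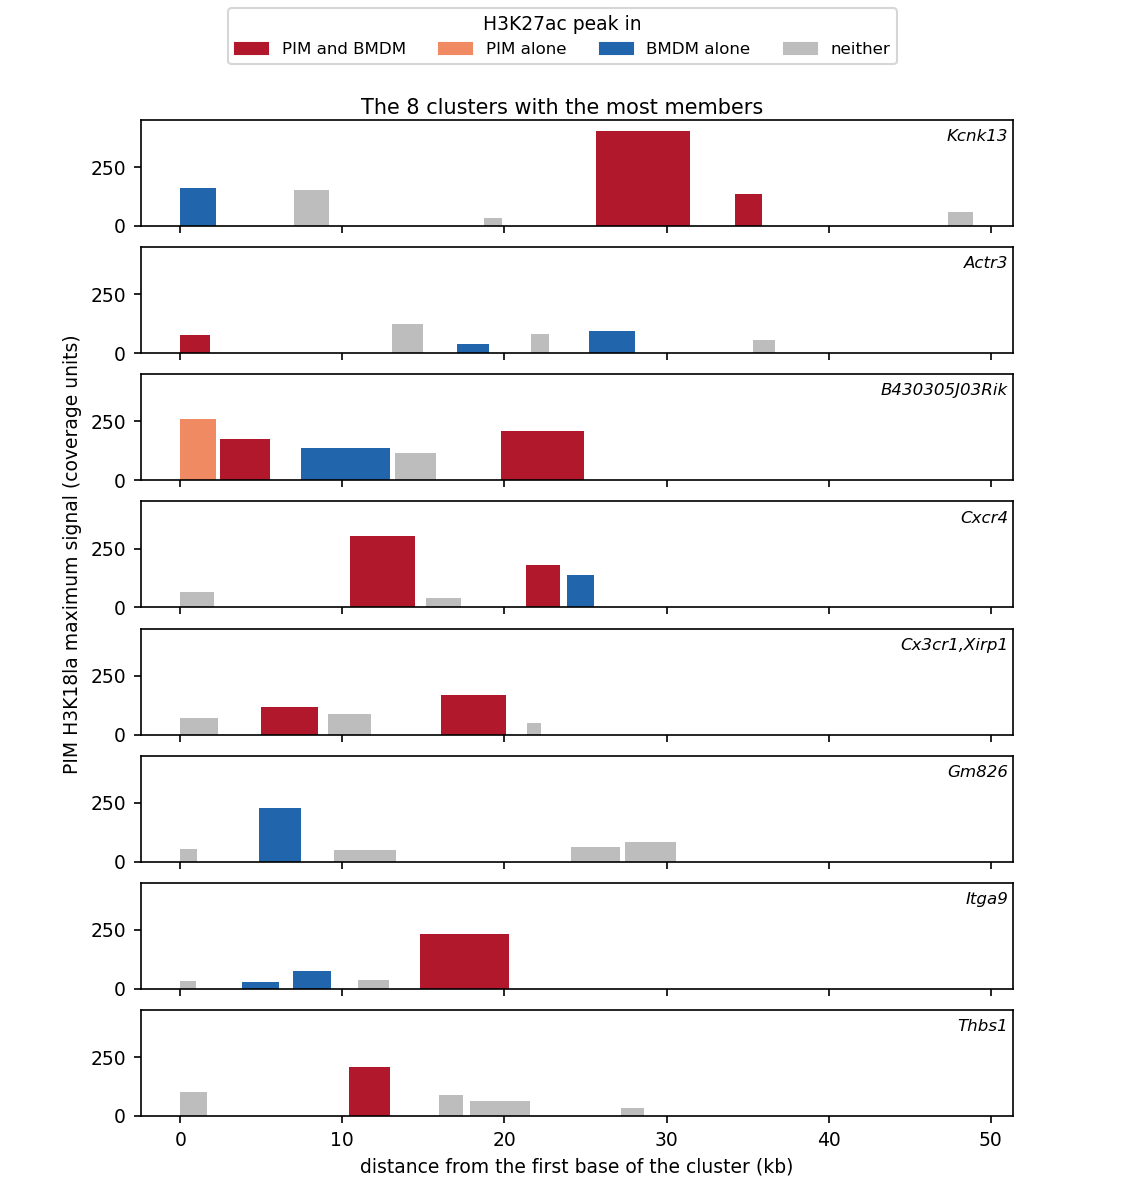
Position (x axis, kb from the first base of the cluster) and maximum PIM H3K18la signal (y axis, coverage units) of each region in the 8 clusters with the most regions, named by the nearest protein-coding genes; colour shows whether a peak of H3K27ac was called in PIM and BMDM, PIM alone, BMDM alone or neither. The highest bar, 403, lies in the Kcnk13 cluster, and each cluster has regions without H3K27ac in either macrophage set.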

How the data were processed

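CUT&Tag of 41 mouse samples (8 cell types, 4 histone marks, 24 groups by label) was used through the deposited peak lists. Per the submitters' processing notes and the methods, the authors trimmed reads with Trim Galore 0.6.6, aligned them to mm10 with Bowtie2 2.4.4, handled them with SAMtools 1.13 and bedtools 2.30, merged the replicates of a group and called peaks with SEACR 1.3, keeping the top 1% of regions. The deposited lists give position, total signal and maximum signal (fragment coverage in whole numbers, not scaled for depth by the authors). The methods state that peaks in blacklisted regions were removed for analysis; this was not applied to the lists here. The lists hold no read totals; the study tabulates reads per sample in a supplement, whose values were not used here, so the precision given rests on the number of regions.

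The members and lists were chosen with earlier results of these data known. Overlaps of at least 1 bp, promoters (2000 bp on each side of each TSS of 141767 GENCODE vM21 transcripts of 55450 genes), nearest protein-coding TSS by edge distance, joining (12.5 kb) and string searches in 300-base windows were computed with Python 3.11.15, numpy 2.4.6, pandas 2.3.3, scipy 1.17.1 and pysam 0.24.0, figures with matplotlib 3.10.9, and the code was tested on simulated data. A region outside the exons and introns of all annotated genes was called intergenic. Sequences are from GRCm38 and promoter windows from RefSeq on GRCm38 (31223 distinct windows). Fold enrichment is the bases of the regions inside a set over those expected on chromosomes 1 to 19, compared between macrophages and other cell types by exact two-sided permutation tests over cell types, with Benjamini-Hochberg adjustment over 2 tests. The named genes were those of the 10 regions with the largest total PIM signal, of the 8 largest clusters, the 10 genes nearest to the most regions, up to 6 genes of each list by number of regions, and the 2 regions on each side of each threshold; regions with the highest maximum, with a PU.1 match, or beside Ccr2 were added for their sequences. Values of some genes that this rule names are not reported here. Alternatives covered promoter width, overlap, stronger peaks, the reference list, joining distance, window and left-out cell types.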

Additional observations from a re-analysis of the deposited data

How the results depend on the processing

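No paired analysis was possible because the replicates of each cell type had been merged before peaks were called, and no replicate could be left out for the same reason. Of 92 recomputed values, 56 kept their direction and size class, 27 moved and 9 lost the unadjusted call; none reversed, and the cause was not tested beyond what each setting's construction shows. Requiring BMDM H3K18la over at least 50% of a region left 1449 regions and 1052 nearest genes, with 40.03% (PIM H3K27ac), 45.8% (BMDM H3K27ac), 20.01% (nearest distal peak a region) and 22.2% (joined within 12.5 kb). Using the stronger part of the PIM and BMDM lists left 1079 regions and 807 genes, with 63.9% (PIM H3K27ac), 66.1% (BMDM H3K27ac), 63.2% (PIM H3K4me3), 23.6% (joined) and 15.8% (PU.1). When the mark had to cover at least 50% of a region the shares were 13.7%, 36.1% and 37.1% for PIM H3K27ac, BMDM H3K27ac and PIM H3K4me3, and with the stronger part of the mark's list 14.6%, 16.9% and 10.8%. Starting from BMDM peaks gave 43.6% for BMDM H3K27ac and 43.8% joined, coding TSS alone 34.7% joined, and joining at 5000 bp and 25000 bp 23.0% and 43.2%. PU.1 was found in 6.70% of windows at the peak midpoint and 10.9% of 200-bp windows. In alternatives chosen after seeing the data, regions above the median PIM maximum had 67.8% PIM H3K27ac, and lifting the exclusion by 1 cell type gave 2594 to 3109 regions. The H3K27me3 difference was -4.81 percentage points on shares of regions (exact permutation p = 0.19), -1.35 with stronger lists (p = 0.095) and between -2.52 and -0.51 with 1 cell type left out, where no p under 0.05 is possible. The H3K27ac difference lay between 5.89 and 8.16 with 1 cell type left out. It had no value with stronger lists, since that mESC-ser list met 0 regions.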

Other observations

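Counts per chromosome ran from 73 regions on chromosome 19 to 226 on chromosome 1, and the density from 0.744 regions per Mb on chromosome 5 to 1.35 on chromosome 13. H3K27me3 and H3K27ac of PIM were called together at 39 regions (1.53%, against 2.10% of all distal PIM peaks). H3K27ac of GAS and of a macrophage set met at 185 regions (7.25%, against 17.5% of all distal PIM peaks). Repeats made up 15.8% of the bases in the 300-base windows, against 16.4% for the other distal PIM peaks and 33.9% for the stem cell set.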
